A study of Mus musculus with 20 samples.

Results

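The 10 genes described here are the core components of the circadian clock and its direct output in the mouse retina: Arntl, Clock and Npas2, which activate transcription, Per1, Per2, Per3, Cry1 and Cry2, which repress it, Nr1d1, a nuclear receptor that closes an auxiliary loop, and Dbp, an output factor. They were chosen by name as listed clock components, and all 10 were found by symbol among the 35006 gene rows of the count tables. Their transcripts were counted in polyA libraries of 20 retinas, each from a different wild-type C57BL/6J mouse. The 4 young control mice were 119 days old and the 4 old control mice 668 days, and both drank water without NACET. The 6 young NACET mice (4 of 129 days and 2 of 119 days by their titles) and the 6 old NACET mice (2 each of 668, 581 and 574 days) drank NACET, an ethyl ester of N-acetylcysteine that enters cells and supplies cysteine, in their water over 5 days at a daily 50 mg/kg. Of the young mice, 2 control and 2 NACET mice were labelled female, and every old mouse was labelled male. The mice lived under a cycle of 12 h of light and dark. The hour at which the retinas were collected is not given in the sources used here, so the clock genes were also read as a check on collection time.

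In the mammalian clock, the proteins of Arntl (BMAL1) and Clock, or Npas2 in place of Clock, bind E-box elements and drive the Per and Cry genes, whose proteins return to the nucleus and block that activity. BMAL1 and CLOCK also drive Nr1d1, whose protein REV-ERB alpha represses Arntl through RORE elements shared with the ROR receptors, and Dbp, which activates genes with D-box elements such as the Per genes. As a result, in rodent tissues with a running clock, the transcripts of Arntl and Npas2 are highest around the end of the night, those of Nr1d1, Dbp and the Per genes are highest during the day or around dusk, and those of Clock change little. The retina holds its own clock, which sets rhythms in melatonin, dopamine and photoreceptor function.

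These elements could be read in the RefSeq promoters (assembly GRCm38.p6, 250 bases before to 50 bases after each start site), of which 13 were listed for 9 of the 10 genes. No entry was found for Per2. The E-box CACGTG, searched on both strands, was present in Per1 and Cry1, against 7.15% of the 32851 mouse promoters of that length. The D-box TTATGTAA was present at 2 positions in Per3, against 0.938% of all promoters. The RORE core TAGGTCA was present in the second listed Arntl promoter, at position 31 counted from the start site, against 2.61% of all promoters. The cAMP response element TGACGTCA, which lies in 1.79% of all promoters, was in none of the 13. With any middle pair (CANNTG, which takes in CACGTG), the E-box was in 8 of the 13 promoters, from 7 of the 9 genes. It was in 72.3% of all promoters. The 4 promoters with a match are shown because each holds 1 of the elements that tie the arms of the clock together, with the matched letters in capitals. A match describes the letters and not the binding of a factor.
Per1, chr11:69098699-69098998, plus strand, E-box at position -166 from the start site: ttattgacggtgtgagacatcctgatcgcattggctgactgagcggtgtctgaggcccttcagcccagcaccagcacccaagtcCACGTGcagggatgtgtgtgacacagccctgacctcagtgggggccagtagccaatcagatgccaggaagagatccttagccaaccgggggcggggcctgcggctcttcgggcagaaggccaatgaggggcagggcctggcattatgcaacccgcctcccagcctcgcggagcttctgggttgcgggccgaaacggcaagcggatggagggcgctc
Cry1, chr10:85185005-85185304, minus strand, E-box at position -60: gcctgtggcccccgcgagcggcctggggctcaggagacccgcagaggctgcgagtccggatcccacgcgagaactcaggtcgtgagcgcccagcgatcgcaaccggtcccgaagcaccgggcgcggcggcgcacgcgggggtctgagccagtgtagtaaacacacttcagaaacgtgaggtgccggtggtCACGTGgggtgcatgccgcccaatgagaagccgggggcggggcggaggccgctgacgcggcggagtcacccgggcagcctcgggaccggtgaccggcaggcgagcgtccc
Per3, chr4:151044616-151044915, minus strand, D-boxes at positions -205 and -158: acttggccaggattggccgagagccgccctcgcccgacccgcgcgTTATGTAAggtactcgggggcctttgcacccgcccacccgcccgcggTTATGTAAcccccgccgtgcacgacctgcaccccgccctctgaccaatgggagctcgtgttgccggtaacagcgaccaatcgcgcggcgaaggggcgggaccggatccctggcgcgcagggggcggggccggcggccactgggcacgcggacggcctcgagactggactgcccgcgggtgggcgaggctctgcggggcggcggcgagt
Arntl, chr7:113207261-113207560, plus strand, RORE core at position 31: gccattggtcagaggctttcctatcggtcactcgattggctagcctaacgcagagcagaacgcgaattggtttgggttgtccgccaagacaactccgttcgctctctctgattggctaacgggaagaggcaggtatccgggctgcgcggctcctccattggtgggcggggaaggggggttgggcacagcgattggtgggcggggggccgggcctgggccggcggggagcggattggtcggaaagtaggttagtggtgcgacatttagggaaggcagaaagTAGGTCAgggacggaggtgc

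Gene counts were 17.7 to 31.1 M per library (M, 1000000 counts). The summed level of 6 rod genes was 58500 to 89830 CPM (counts scaled to 1000000 gene counts per library) in all 20 libraries. Some libraries stood apart: old NACET replicate 1 held 11040 CPM of 6 lens genes, against at most 21.6 CPM elsewhere, old control replicate 2 and young NACET replicate 4 held 558.8 and 507.8 CPM of 6 corneal and conjunctival genes, and old control replicate 4, labelled male, held Xist at 2473 CPM with 1 count over 4 Y-linked genes. Corneal genes were also raised in young NACET replicates 3 and 5, where Krt5 alone was 63.15 and 73.68 CPM. In young controls the 6 corneal and conjunctival genes summed to at most 17.01 CPM. The part of other tissue in the levels of the clock genes was not tested.

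All 10 clock genes were expressed in every library. In the mm9 annotation, the build of the counts, Arntl lies at chr7:120350979-120457636 on the plus strand, Per1 at chr11:68908719-68923462 on the plus strand, Nr1d1 at chr11:98629246-98636647 on the minus strand and Dbp at chr7:52960458-52965525 on the plus strand, all as protein-coding genes. Per kilobase of merged exon length, the mean over 20 libraries was highest for Nr1d1, at 52.8 CPM per kb, followed by Arntl at 39.2 CPM per kb. Dbp, Clock, Cry1, Per1, Cry2 and Per3 followed at 22.3, 19.7, 18.4, 18.1, 17.0 and 14.6 CPM per kb, and the ranges over libraries of these 6 genes overlapped from 1 to the next. Per2 stood lower at 5.86 CPM per kb, and Npas2, the forebrain relative of Clock, was lowest at 0.56 CPM per kb with 30 to 102 reads per library. The gene that changed least between libraries was Arntl, from 99.8 CPM in young NACET replicate 4 to 126.7 CPM in old NACET replicate 3, a 1.27-fold range. Between the library with the lowest level and the one with the highest, Clock differed 1.32-fold, Cry2 1.36-fold, Cry1 1.40-fold, Nr1d1 1.46-fold, Per3 1.49-fold, Dbp 1.55-fold, Per2 1.61-fold, Per1 1.84-fold and Npas2 2.49-fold. Within groups, the coefficient of variation was 5.01% for Arntl and 13.4%, 14.0% and 21.1% for Per1, Per2 and Npas2. Exons of 3 members overlap a gene on the other strand (Nr1d1 with Thra, Dbp with Sphk2, Cry2 with D930015M05Rik, by 8.42%, 16.7% and 4.67% of their exon length). The counting did not use strand, so reads wholly within such an overlap would be set aside as ambiguous and counted for neither gene. This can lower the CPM per kb of these 3 members. In whole retina, fewer cells of a type and less RNA per cell cannot be told apart.

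**Figure D1:**
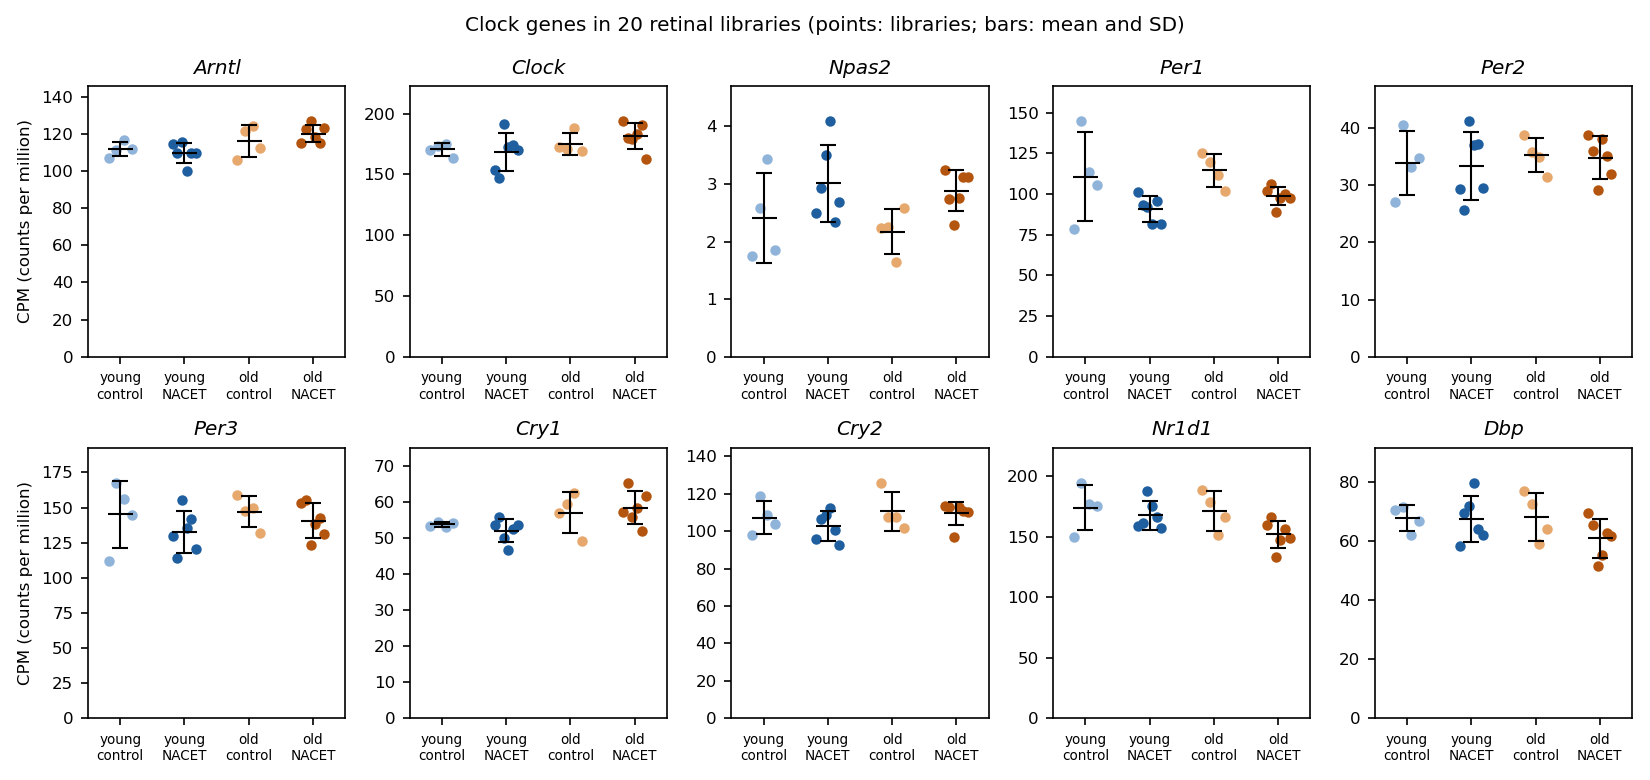
CPM of each of the 10 clock genes (vertical axes from 0) in the 20 libraries by group (horizontal axes), with points for libraries and bars for the mean and SD. The groups compared by age or by NACET overlap in every gene. Per1 does not overlap between young NACET (81.6 to 101.4 CPM) and old control (101.8 to 125.1 CPM), which were not compared. The widest relative spread is that of Npas2, from 1.64 to 4.09 CPM.

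The positive arm is taken first. Arntl was 112 CPM ± 3.94 (SD, n = 4) in young controls, 109.7 CPM ± 5.57 (n = 6) in young NACET, 116 CPM ± 8.42 (n = 4) in old controls and 120.1 CPM ± 4.74 (n = 6) in old NACET retinas. The lowest group mean of Arntl is that of young NACET and the highest that of old NACET, with overlapping ranges. Clock, the partner of BMAL1, followed the same order at 171 CPM ± 5.01, 168 CPM ± 15.7, 175 CPM ± 8.96 and 182 CPM ± 10.9. Npas2 was 1.75, 2.58, 3.44 and 1.86 CPM in the 4 young controls and 2.23, 2.25, 1.64 and 2.58 CPM in the 4 old controls. In NACET retinas, Npas2 ran from 2.33 to 4.09 CPM in the young (median 2.82) and from 2.29 to 3.24 CPM in the old (median 2.93). Thus 5 of 6 old NACET retinas lay above all 4 old controls, the exception being replicate 3, while the young groups were mixed.

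The repressors varied more from mouse to mouse. Per1, the period gene that also responds directly to light and to glucocorticoids, was 78.8, 144.7, 114 and 106 CPM in the 4 young controls and 125, 119.5, 112 and 102 CPM in the 4 old controls. In NACET retinas, Per1 ran from 81.6 to 101.4 CPM in the young (median 92.7) and from 89.2 to 106 CPM in the old (median 98.9). In the old mice, 5 of 6 NACET retinas lay below the lowest control, with replicate 2 as the exception, and in the young mice the lowest control lay below every NACET retina and the other 3 above them all. Per2 had group means of 33.3 to 35.2 CPM and Per3 of 133 to 147 CPM, with young control replicate 1 the lowest and young control replicate 2 the highest control in both. Cry1 had group means of 52.1 to 58.5 CPM and Cry2 of 103 to 111 CPM, and young controls differed little in Cry1, at 53.8 CPM ± 0.681 (SD, n = 4).

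Nr1d1 was 149.6, 194.5, 177 and 175 CPM in the 4 young controls and 189, 178, 151 and 166 CPM in the 4 old controls. In NACET retinas it ran from 157 to 188 CPM in the young (median 163) and from 133 to 166 CPM in the old (median 153). The old NACET group was the lowest of the 4, and 4 of its 6 retinas lay below every young NACET retina. Dbp was 70.7, 71.5, 61.9 and 66.7 CPM in young controls and 77.0, 72.5, 58.9 and 64.0 CPM in old controls. Its range was 58.3 to 79.7 CPM in young NACET (median 66.7) and 51.5 to 69.4 CPM in old NACET retinas (median 62.2), where 2 of 6 lay below all other groups.

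Age without NACET was read in the control mice. Batch tag and age cannot be told apart in them, and only the young controls include mice labelled female. None of the 10 clock genes was called between old and young controls: 4 were higher and 6 lower, and the differences ran from -0.19 for Npas2 (SE 0.23, on the log2 scale) to 0.034 for Cry1 (SE 0.072), with a smallest adjusted p of 0.687 (edgeR's quasi-likelihood test with Benjamini-Hochberg adjustment over all genes tested). In that comparison 1.42% of the 16484 genes tested were called at an adjusted p under 0.05, 180 higher and 54 lower in old retinas. The interval of the difference at 95% ran from -0.13 to 0.15 for Arntl, from -0.13 to 0.11 for Clock and from -0.22 to 0.14 for Dbp, and was wider for Per1, from -0.28 to 0.29. At an unadjusted p under 0.05 there were 0 of 10 clock genes, against 16.3% of all genes, and DESeq2 called 0 of 10 too. No clock gene had CPM ranges that were apart between the groups, against 11.3% of all genes. The median size of the difference, whatever its sign, was 0.02 over the 10 genes and 0.11 over all genes tested. In labelled males alone (2 young and 4 old controls), Dbp differed by -0.12 (SE 0.098) and Arntl by 0.037 (SE 0.088), with adjusted p of 0.654 and 0.895 by edgeR. These males include old control replicate 4, the library with Xist.

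The 4 old controls of that comparison also serve as the reference for NACET in old mice. There the fit gave lower Per1, Nr1d1 and Dbp and higher Npas2, but no clock gene passed the threshold. Per1 differed by -0.22 (SE 0.053, 95% interval -0.33 to -0.11, edgeR adjusted p = 0.0744), Nr1d1 by -0.18 (SE 0.062, adjusted p = 0.197), Dbp by -0.17 (SE 0.079, adjusted p = 0.354) and Npas2 by 0.38 (SE 0.14, adjusted p = 0.236). Of 16562 genes tested, 0.543% were called. At an unadjusted p under 0.05 there were 3 clock genes, Per1, Nr1d1 and Npas2, against 14.4% of all genes, and no gene of the 10 had groups that were apart in CPM, against 3.57% of all genes. DESeq2, which called 2.19% of its genes, called Per1 alone among the 10 (difference -0.22, adjusted p = 0.0102). The other 6 genes differed by -0.071 (Per3, SE 0.061) to 0.042 (Clock, SE 0.053). The old controls are all of 668 days, so the comparison could be repeated in the 668-day mice only (4 controls and 2 NACET mice): Per1 then differed by -0.15 (SE 0.073), Nr1d1 by -0.078 (SE 0.08), Dbp by -0.02 (SE 0.089) and Npas2 by 0.44 (SE 0.21), with adjusted p of 0.627 to 0.97 by edgeR. Per2 and Per3 turned from lower to slightly higher there, at 0.08 (SE 0.077) and 0.064 (SE 0.066). Without old control replicate 4 and old NACET replicate 1 together, a choice made after seeing the data, Per1 differed by -0.27 (SE 0.055, edgeR adjusted p = 0.0557) and Nr1d1 by -0.20 (SE 0.072, adjusted p = 0.256).

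**Figure D2:**
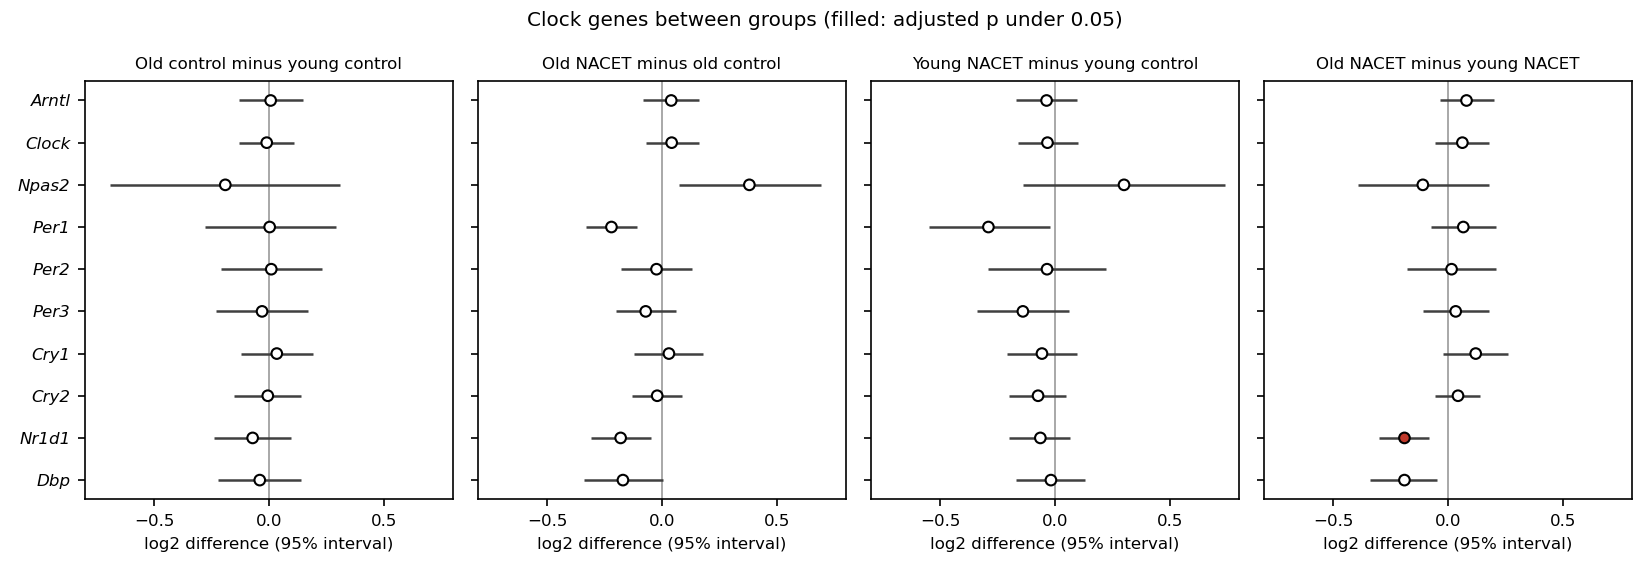
Log2 difference (horizontal axes) of the 10 clock genes (vertical axis) in 4 comparisons of groups by edgeR, with lines for the 95% interval and filled points at an adjusted p under 0.05. The only filled point is Nr1d1 between old and young NACET retinas, at -0.19, and the aging panel holds differences of -0.19 to 0.034.

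NACET in young mice gave no call in any gene, in or outside the clock: 0% of 16588 genes passed by edgeR, and DESeq2 called 0 as well. Per1 had the lowest unadjusted p of the 10, with a difference of -0.29 (SE 0.12, 95% interval -0.55 to -0.024, edgeR adjusted p = 1.0), and was the only clock gene under an unadjusted 0.05, against 4.36% of all genes. This value rests on single controls, since it was -0.15 without young control replicate 2 and -0.41 without replicate 1. Npas2 differed by 0.30 (SE 0.21) and the remaining 8 genes by -0.14 (Per3) to -0.018 (Dbp). Again 0 of 10 genes had groups apart in CPM, against 0.723% of all genes. The 5 young NACET mice with a batch tag of 129 days, 1 of which (replicate 6) is 119 days old by its title, have no control of that tag, so tag and NACET cannot be told apart in them. With the batch tag as a covariate, Per1 differed by -0.23 (SE 0.23) and Npas2 by -0.067 (SE 0.35), with adjusted p of 1.0 by edgeR.

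Between old and young NACET retinas, batch tag and age cannot be told apart, and only the young include mice labelled female. Nr1d1 was 152 CPM ± 11.4 (SD, n = 6) in the old and 168 CPM ± 11.9 (n = 6) in the young. This was a difference of -0.19 (SE 0.052, 95% interval -0.30 to -0.082, edgeR adjusted p = 0.0428). Nr1d1 was 1 of 10 clock genes called, where 4.88% of 16276 genes were called and 2.64% were called lower in the old. DESeq2 called it too (adjusted p = 0.00551). The call is close to the threshold: it was lost in 9 of 12 fits that each left out 1 library (adjusted p 0.024 to 0.0861, difference -0.22 to -0.17), kept without young NACET replicate 2, young NACET replicate 6 or old NACET replicate 2. Dbp differed by the same amount, -0.19 (SE 0.068), without passing (edgeR adjusted p = 0.112). These were the 2 clock genes at an unadjusted p under 0.05, against 21.1% of all genes. Cry1, a repressor whose transcript runs closer to that of Arntl than to those of the Per genes, differed by 0.12 (SE 0.066) and Arntl by 0.08 (SE 0.055), with adjusted p of 0.33 and 0.429 by edgeR. No clock gene was apart between these groups, against 4.07% of all genes. The comparison shares its old NACET libraries with that of NACET in old mice, so the lower Nr1d1 in both is measured on the same 6 retinas. Of these, the 2 of 668 days, at 159.5 and 166.2 CPM, lay within the young NACET range of 157.5 to 188.0 CPM. The other 4, of 581 and 574 days, lay below it at 133.4 to 156.3 CPM.

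The change with NACET was compared between the ages in 1 fit of all 20 libraries. The difference of differences ran from -0.15 for Dbp (SE 0.11) to 0.083 for Npas2 (SE 0.26) and Cry1 (SE 0.10), with adjusted p of at least 0.913 by edgeR. For Per1 it was 0.064 (SE 0.15, 95% interval -0.24 to 0.37) and for Nr1d1 -0.12 (SE 0.09, interval -0.31 to 0.068). None of the 10 was called, and 0% of 16993 genes were by edgeR (1052 genes, or 6.19%, at an unadjusted p under 0.05, with no clock gene among them, and 86 genes by DESeq2).

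Within the old NACET group, the 2 mice of 668 days could be set against the 4 of 581 and 574 days. Per3 was 153 and 155 CPM in the 668-day retinas and 123 to 143 CPM in the other 4, a difference of 0.21 (SE 0.06, 95% interval 0.076 to 0.34, edgeR adjusted p = 0.35). Dbp was 69.4 and 65.6 CPM against 51.5 to 62.7 CPM (difference 0.22, SE 0.074, adjusted p = 0.427), and Nr1d1 was 159.5 and 166 CPM against 133 to 156 CPM (0.15, SE 0.062, adjusted p = 0.545). Per1 was 102 and 106 CPM against 89.2 to 99.9 CPM (0.11, SE 0.057, adjusted p = 0.647). All 4 are day-to-dusk genes of the clock, and in each the 668-day retinas lay above the 4 others without overlap. Per2, also a day-to-dusk gene, did overlap, at 38.69 and 35.95 CPM against 29.07 to 38.06 CPM (0.16, SE 0.09, edgeR adjusted p = 0.69). Of the 16659 genes tested, 9.13% were higher at 668 days without overlap. Of the 10 genes, 9 had a higher mean at 668 days, with a median difference of 0.11 against 0.0069 over all genes, and the exception was Arntl at -0.021 (SE 0.064). No gene was called by edgeR, in or outside the clock (0%). At an unadjusted p under 0.05 there were 3 clock genes, Per3, Dbp and Nr1d1, against 8.26% of all genes, and DESeq2 called 46 genes with no clock gene among them. Old NACET replicate 1, with the lens genes, is 1 of the 2 retinas of 668 days. Batch tag and age in days are the same label in these mice and cannot be told apart.

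**Figure D3:**
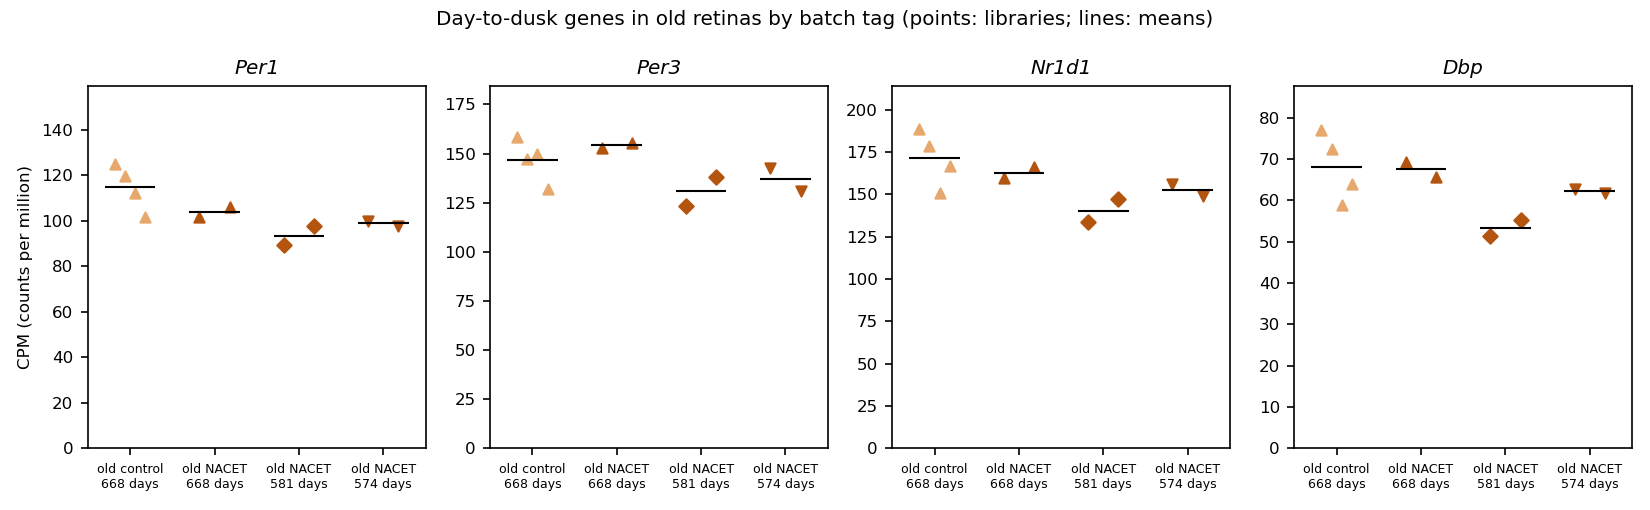
CPM (vertical axes from 0) of Per1, Per3, Nr1d1 and Dbp in the 4 old controls and in the old NACET libraries by batch tag (horizontal axes), with points for libraries and lines for means. The 2 NACET retinas of 668 days lie above the 4 of 581 and 574 days in each gene, for Dbp at 69.4 and 65.6 CPM against at most 62.7 CPM.

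To read collection time from the clock itself, the mean log2 CPM of 4 genes taken as the dawn side (Arntl, Npas2, Cry1 and Clock, whose own transcript changes little) was set against that of 5 that peak in the day or at dusk (Nr1d1, Dbp, Per1, Per2 and Per3); Cry2 was on neither side. This index has no test here. It was -1.06, -1.39, -1.05 and -1.29 in the 4 young controls and -1.38, -1.23, -1.14 and -1.11 in the 4 old controls. In NACET retinas it ran from -1.17 to -0.93 in the young (median -1.06) and from -1.03 to -0.83 in the old (median -0.97). The control groups had nearly the same mean, -1.20 ± 0.167 (SD, n = 4) and -1.22 ± 0.121 (n = 4). Old NACET retinas had the highest mean, -0.95 ± 0.08 (n = 6), and all 6 lay above all 4 old controls, while the young groups overlapped. The difference of the means was -0.017 for age, 0.262 for NACET in old mice, 0.152 for NACET in young mice and 0.093 between old and young NACET, beside a pooled SD within groups of 0.111. Without 1 library, the difference for age ran from -0.079 (without young control replicate 2) to 0.038 (without old control replicate 1), and so changed sign, and that for NACET in young mice ran from 0.09 (without young control replicate 2) to 0.20 (without young control replicate 3). Without Clock and Cry1, the differences for NACET were 0.354 in old and 0.249 in young mice. In the 668-day mice alone the NACET difference was 0.186, and the 2 mice were at -1.03 and -1.03. In the mice with a batch tag of 119 days, it was 0.032, resting on 1 NACET mouse. Npas2, the gene with the fewest reads, carried a part of the index: without it, a choice made after seeing the data, the differences for NACET were 0.172 in old and 0.058 in young mice. On Arntl minus Dbp alone, the difference was 0.209 in old mice, -0.02 in young mice and 0.278 between old and young NACET. Collection time and NACET cannot be told apart where the mice of a group were collected together, and the labels do not give the hours.

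**Figure D4:**
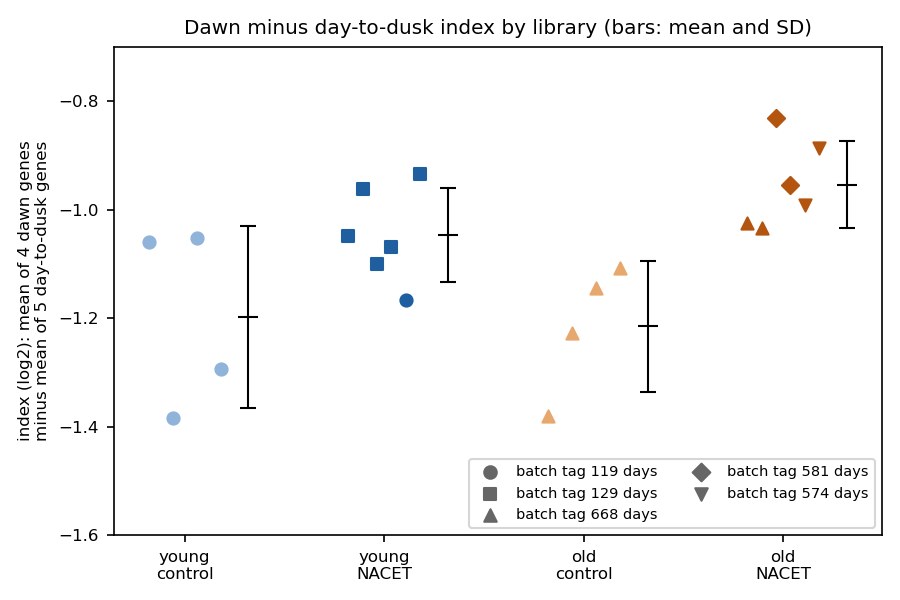
Dawn minus day-to-dusk index (log2, vertical axis) for each library by group (horizontal axis), with marker shapes for the batch tag and bars for the mean and SD. The 6 old NACET libraries, at -1.03 to -0.83, lie above the 4 old controls, at -1.38 to -1.11.

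In a running clock Arntl is low when Dbp is high, so both were compared mouse by mouse. Across the 20 libraries, after subtracting group means, Arntl was correlated with Dbp at r = -0.615 (two-sided permutation p = 0.0137, adjusted over the 9 other clock genes 0.123; Spearman's rho -0.505, permutation p = 0.0477, adjusted 0.397). Young NACET replicate 4, with Arntl at 99.8 CPM and Dbp at 79.7 CPM, and old control replicate 1, with 106 and 77.0 CPM, were farthest from the median of Arntl. Without these 2 libraries r was weaker, at -0.373 (permutation p = 0.188). Leaving out the extremes of Arntl also narrows its range. Young NACET replicate 4 is 1 of the libraries with corneal genes, and without it alone r was -0.507 (permutation p = 0.0754). Within the 6 young NACET and the 6 old NACET retinas r was -0.632 (exact permutation p = 0.147) and -0.557 (exact permutation p = 0.274), and centred on group and batch tag it was -0.655 (permutation p = 0.0258). The other relations of Arntl were weaker: r was 0.493 with Cry1, -0.41 with Cry2, -0.265 with Npas2, -0.243 with Nr1d1, 0.187 with Per1, -0.152 with Per2, 0.0695 with Per3 and 0.0037 with Clock, with permutation p adjusted over the 9 of at least 0.325. Spearman's rho for these 8 ran from -0.382 to 0.418, with adjusted permutation p of at least 0.397. No relation of the 9 passed adjustment.

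**Figure D5:**
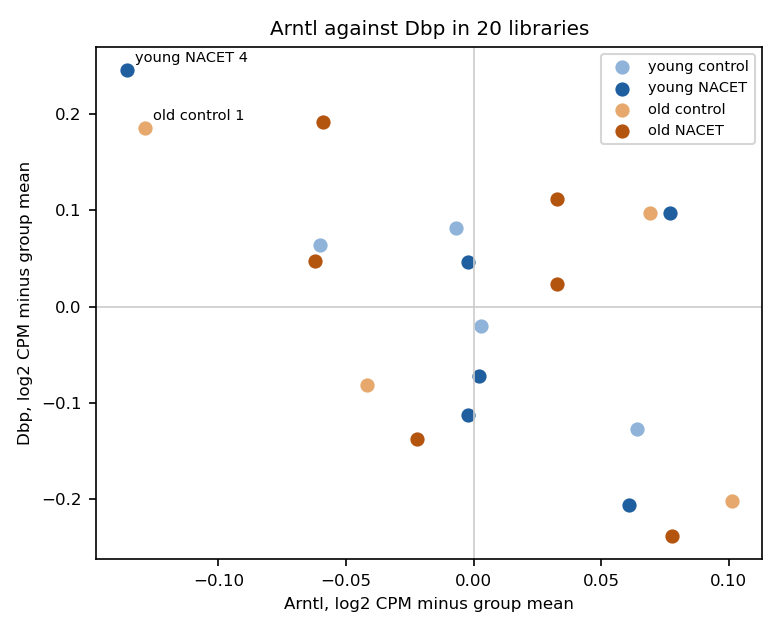
Dbp (vertical axis) against Arntl (horizontal axis), both as log2 CPM minus the group mean, in the 20 libraries, coloured by group. Young NACET 4 and old control 1 sit at the upper left, and r is -0.615 with them and -0.373 without.

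The clock was also read in 58 further genes of the loop, its kinases, its outputs and the pathways that reset it. In aging and in young NACET mice none was called. In old mice under NACET 5 were called, where 0.543% of all genes were. Of the immediate early genes, which are switched on within minutes by light or activity, 4 of 10 tested fell and none rose: Fos by 0.86 on the log2 scale (SE 0.12, edgeR adjusted p = 0.0126), Egr1 by 1.42 (SE 0.24, adjusted p = 0.025), Nr4a1 by 0.70 (SE 0.12, adjusted p = 0.0229) and Sik1, a kinase that limits clock resetting, by 0.72 (SE 0.096, adjusted p = 0.0103). The median difference of these 10 was -0.30, against 0.002 over all genes. In young mice under NACET, 11 immediate early genes were tested, with a median of -0.43 against -0.0045 over all genes. None of the 11 was higher, and 6 were at an unadjusted p under 0.05 by edgeR, against 4.36% of all genes. The summed level of 12 immediate early genes was 123 to 174.5 CPM in old controls and 91.5 to 104 CPM in old NACET retinas. Over the same groups, 6 pigment epithelium genes summed to at least 91.3 CPM and to 30.3 to 112 CPM, and the 6 corneal and conjunctival genes to 10.7 to 559 CPM and 0.836 to 17.0 CPM, and their part in the result was not tested. The control with the highest sum, old control replicate 1, also had the highest Per1 of the old mice. In young mice, too, the highest sum (202 CPM) and the highest Per1 (144.7 CPM) were in the same library, young control replicate 2. Zbtb16, a glucocorticoid target, rose by 0.93 (SE 0.18, edgeR adjusted p = 0.0428), the only call by edgeR among 10 such genes. DESeq2 called 2 of them, Zbtb16 and Ddit4, and Ddit4 was lower, at 111 CPM in old NACET retinas and 127 CPM in old controls. Fos and Sik1 passed whichever of the 10 libraries was removed, Egr1 and Nr4a1 did so except without old control replicate 4, old NACET replicate 3 or old NACET replicate 4, and Zbtb16 passed in 3 of the 10 fits, without old control replicate 3, old NACET replicate 2 or old NACET replicate 6. All 5 calls were lost in the 668-day mice only, with the batch tag as a covariate and in 1 fit of all 4 groups, settings added for these genes after seeing the data. In the 668-day mice only (4 controls and 2 NACET mice, 0 genes called in all), Fos differed by -0.87 (SE 0.19, edgeR adjusted p = 0.524), Egr1 by -1.46 (SE 0.38, adjusted p = 0.532) and Zbtb16 by 1.29 (SE 0.19, adjusted p = 0.303). In the fit of all 4 groups, which called 1 gene in all, the adjusted p of the 5 genes was 0.084 to 0.231. The lists that follow also count the 10 clock genes. In the lists of the positive arm, the negative arm, the nuclear receptor loop, the clock output, the kinases and the rhythmic retinal genes, 0 of 4, 10, 6, 7, 9 and 8 tested genes passed by edgeR. At an unadjusted p under 0.05 there were 1, 2, 3, 2, 1 and 3, against 14.4% of all genes. Npas2, Per1 and Nr1d1, given above, are among these. Bhlhe41 (DEC2), an E-box repressor, was 89.0 CPM ± 6.44 (SD, n = 6) in old NACET retinas and 103 CPM ± 6.67 (n = 4) in old controls, with no overlap, and was called by DESeq2 (adjusted p = 0.00932) but not by edgeR (difference -0.22, SE 0.053, adjusted p = 0.0741).

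Between old and young NACET retinas, Rorb, Gnaz, Fos, Egr1 and Nr4a1 were among the wider genes called, where 4.88% of all genes were. In the nuclear receptor loop, where Nr1d1 was called as well, Rorb, a receptor that activates through the RORE, fell. It was 115 CPM ± 28.1 (SD, n = 6) in old NACET and 261 CPM ± 44.9 (n = 6) in young NACET retinas, a difference of -1.24 (SE 0.14, edgeR adjusted p = 5.03e-05). In controls Rorb was 182 CPM ± 22.8 (n = 4) in the young and 167 CPM ± 35.5 (n = 4) in the old. The difference of its NACET differences between the ages was -1.07 (SE 0.22) and was not called by edgeR (adjusted p = 0.0678), while DESeq2 called it (adjusted p = 0.0175). Of the rhythmic retinal genes, Gnaz fell by 0.26 (SE 0.046, edgeR adjusted p = 0.00294). The immediate early genes Fos, Egr1 and Nr4a1 all fell (edgeR adjusted p of 4.91e-05, 2.95e-05 and 0.00759), Egr1 to 6.55 CPM ± 1.29 (SD, n = 6) from 18.0 CPM ± 4.74 (n = 6). Of 10 immediate early genes tested, these 3 were called by edgeR, and 3 others were higher in the old. The median over the 10 was -0.08, against -0.0013 over all genes. Sik1 differed by -0.14 (SE 0.12, edgeR adjusted p = 0.539). Npas4 was 6.40 CPM in old and 4.30 CPM in young NACET retinas, and was called by DESeq2 only. Both comparisons use the same 6 old NACET libraries. In these genes too, batch tag and age cannot be told apart between old and young NACET retinas.

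The genes whose levels ran most like the index across the 20 libraries were listed among 11988 genes with a mean of at least 5 CPM, after subtracting group means, as a description. The 8 highest were Gadd45a (r = 0.804), Tsg101, Gm5560, Ptma, Pbx3, Nxnl2, Arxes1 and Fam96a (r = 0.728). The 8 lowest were Ccdc84 (r = -0.893), Mafg, Zfp235, Rai14, Eif4g1, Zbtb49, Tpcn1 and Cbfa2t3 (r = -0.812). None of these 16 belongs to the clock lists. Of the listed genes, Sik1 (r = -0.796) was 13th from the lowest, and Tef, a D-box factor of the same family as Dbp, was 63rd (r = -0.737). The libraries share depth and tissue make-up as well as phase, and their part in these values was not tested.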

How the data were processed

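Retinal RNA of 20 mice was sequenced. The deposited files hold unnormalized read counts by gene that the authors made, per the labels and the study's methods, from polyA-selected TruSeq libraries aligned to mm9 with TopHat2 2.1.0 and counted with HTSeq 0.11.2 over exons without regard to strand. The annotation used for counting is not given in the sources used here. A row that names no gene (0.00071% to 0.00157% of counts) was left out. Depth was 17.7 to 31.1 M gene counts per library (M, 1000000), so that every clock gene but Npas2 had at least 453 reads in each library.

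Differences between groups were tested on all genes with edgeR 4.0.16 in R 4.3.3 (TMM, default expression filter, quasi-likelihood test, Benjamini-Hochberg adjustment, call at an adjusted p under 0.05), on the groups compared, and for the difference between ages on all 20 libraries. All 10 clock genes passed the filter in every comparison. Differences are on the log2 scale with their standard error (SE). CPM are counts scaled to 1000000 per library, and log2 CPM used a prior count of 1. Correlations have permutation p-values from 100000 permutations within groups, or exact ones in groups of 6. Libraries of a group are separate mice, and none were alike within sampling noise: the chi-square per degree of freedom over 42 pairs was 2.63 to 34.7. The scripts were tested on simulated data. Gene lengths came from the GENCODE annotation of mm9, and promoters from RefSeq on GRCm38.p6, a later assembly than that of the counts.

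The clock genes, the wider lists and the tests were chosen with earlier results of these data known. Genes named are the 10 clock genes and genes of the wider lists called in a comparison. The 8 highest and 8 lowest by correlation with the index are named too. Bhlhe41, Ddit4, Npas4 and Tef were added after their values were seen. Asmt and Tfap2a of the wider lists were not found by symbol, and Ciart was found as Gm129. A further result of the wider lists is not reported here. Of 20 sets of labels, 1 gave both 119 and 129 days (young NACET replicate 6), and the methods of the study name only male mice. Other settings tried were DESeq2 1.42.0, RLE in place of TMM, a filter at 1 CPM or none, fits without 1 library, a block for the replicate number, sex, batch tag or title age as a covariate, labelled males or 668-day mice only, a fit of all 4 groups, a robust fit, and other forms of the index and the correlation.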

Additional observations from a re-analysis of the deposited data

Results flagged for a closer look

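In the 11 measures (the 10 clock genes and the index) over 4 groups, 44 sets of libraries were searched for 1 library far from the rest of its group, and 2 were found; chance alone gives about 1 in 20. Clock in old control replicate 3 was at 189 CPM, while the other 3 old controls were at 169 to 172 CPM, a gap of 0.837 of the whole range. Cry2 in old NACET replicate 3 was at 96.7 CPM, while the other 5 old NACET retinas were at 110.1 to 113 CPM, a gap of 0.804 of the range. Old NACET replicate 3 also had the lowest Nr1d1 (133 CPM) and Dbp (51.5 CPM) and the highest Arntl (126.7 CPM) of the 20 libraries. No clock gene moved in opposite directions with NACET in young and old mice without overlap.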

How the results depend on the processing

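Over all alternatives there were 1160 fitted differences of single clock genes: 1139 kept their direction and side of the threshold or moved by less than their SE, 9 uncalled differences changed sign by more, 11 lost a call, 1 gained one and 0 reversed. The 11 losses are all those of Nr1d1 between old and young NACET, whose count of called clock genes was 0 with no filter, 0 with the replicate block and 0 to 1 over 12 fits without 1 library; the 1 gain is Per1 for NACET in old mice by DESeq2 (1 called). The replicate numbers did not pair the mice: same-numbered libraries correlated over 0.1 in 1 of 4, 1 of 4, 2 of 4 and 1 of 6 pairs (aging, NACET in old, NACET in young, age under NACET). With the replicate number as a block, Nr1d1 between old and young NACET was -0.19 (SE 0.062, edgeR adjusted p = 0.131), no clock gene was called in any comparison, and calls over all genes went from 234 to 163, 90 to 17, 0 to 6 and 795 to 422. Among the 58 wider genes, calls by DESeq2 were 1 in aging (Adcy1) and 1 for the interaction (Rorb), and without 1 library they were 0 to 1 in aging (Zbtb16), 2 to 5 for NACET in old mice, 0 to 1 for the interaction (Rorb) and 0 to 2 for the 668-day batch (Cdkn1a and Mt2); for NACET in old mice they were 0 in 668-day mice only, 0 with the batch tag as a covariate and 0 in 1 fit of all 4 groups. The index difference for NACET in young mice was -0.02 on Arntl minus Dbp and 0.032 at a batch tag of 119 days, and that between old and young NACET was 0.278 on Arntl minus Dbp. The correlation of Arntl with Dbp was -0.373 without the 2 farthest libraries, -0.632 in young NACET, -0.557 in old NACET, and -0.705 to -0.507 without 1 library. With any middle pair, 7 genes had an E-box. Without old control replicates 2 and 4 together, a choice made after seeing the data, 0 clock genes were called in aging. The causes were not tested. Arms of 2 mice (labelled young male controls, 668-day NACET mice) rest on a spread shared with the larger groups.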
